A study of Mus musculus with 44 samples.

Results

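The genes described here are 10 genes of T cell receptor signalling, *Cd3d*, *Cd3e*, *Cd3g*, *Cd247*, *Lck*, *Zap70*, *Lat*, *Cd2*, *Rhoh* and *Tcf7*, taken by symbol from a table of 14699 genes, and all 10 passed the filter on low values that left 11963 genes for testing. Their mRNA was measured by RNA-seq in cells sorted as CD45+CD11c+MHCIIhigh, migratory dendritic cells (DCs), from the inguinal lymph nodes of female mice aged 8 to 12 weeks, in 44 libraries. Control mice received B16-F10-OVA cells, a mouse melanoma line that carries ovalbumin, at zeitgeber time (ZT) 3, 9, 15 or 21 (5 libraries each, labelled WT), counted in hours from lights on in a 12 h light and 12 h dark schedule. Mice labelled KO received the same cells (3 libraries each). They carried *Clec9a-cre*, which is active in conventional DCs, on 1 allele with *Bmal1flox* on both (Bmal1ΔcDC). Sham mice, WT by label, received PBS (3 libraries each), and every node was taken 24 h after the injection, so the time of injection and the time of collection cannot be told apart. The study describes 2 independent experiments, which the labels do not tie to mice.

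The T cell receptor has no signalling domain of its own and is carried by the CD3 chains, whose tails are phosphorylated by the kinase LCK when a peptide on MHC is bound. ZAP-70 then docks on those tails and phosphorylates the scaffold LAT, from which the calcium and RAS branches start. T cells and, for some of these genes, natural killer (NK) cells and innate lymphoid cells are known for this machinery, whereas DCs present the peptide.

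The labelled cell type was checked against its markers. The summed level of 10 DC markers, among them *Cd74*, *Ccr7*, *Fscn1* and *Ccl22*, lay between 29575 and 46543 CPM (reads on a gene scaled to a common library total) in the control tumour libraries, between 30047 and 41479 CPM in the KO libraries and between 31077 and 43134 CPM in the sham libraries. The summed level of *Cd3d*, *Cd3e*, *Cd3g* and *Cd247* was 93.2 to 269 CPM, 180.01 to 457 CPM and 216 to 621 CPM in the same order. The RNA of the receptor complex was thus present in every library, at a level far below the DC sum. Averaged over all libraries, the chains measured 84.7 (*Cd3g*), 78.5 (*Cd3e*), 51.2 (*Cd3d*) and 26.3 CPM (*Cd247*). The DC markers ran from 47.4 CPM for *Itgax* to 11907 CPM for *Cd74*, and all except *Itgax* averaged above every chain. In bulk RNA of this kind, fewer cells of a type and less RNA per cell cannot be told apart. Between 20088012 and 28962671 reads on genes stood behind each control tumour library, 29406729 to 55799163 behind each KO library and 28003328 to 49590055 behind each sham library, so depth and group cannot be told apart. *Arntl* (also called *Bmal1*), the gene targeted in the KO mice, was measured at 8.67 to 24.4 CPM in the control tumour libraries and 11.5 to 37.99 CPM in those labelled KO. This gene level sums all exons and was not lower, so it does not check the label KO.

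The members lie on 7 of the mouse autosomes, and all 10 are protein-coding genes with coordinates on mm10. *Cd3g* (chromosome 9, 44969572 to 44980431, minus strand) and *Cd3d* (44981786 to 44987339, plus strand) point away from each other with 1337 bases between their RefSeq genes, and *Cd3e* (44998740 to 45009627, minus strand) follows. *Lat* lies on chromosome 7 (126363824 to 126369570, minus strand), and *Tcf7* on chromosome 11 (52252371 to 52283014, minus strand). RefSeq promoter windows (GRCm38.p6, 250 bases before to 50 after a start) matched 9 members with 13 windows, and *Cd2* is named only. The E-box CACGTG, the letters bound by the clock factors CLOCK and BMAL1, was searched on both strands, and it stood in the windows of *Lat* and *Zap70*, 2 of 13, against 7.15% of the 32851 windows in the table. The D-box TTATGTAA stood in none of the 13 windows and in 0.938% of all. CTTTGA, letters bound by TCF and LEF factors such as the product of *Tcf7*, stood in the windows of *Cd247*, *Cd3d* and *Zap70* (3 of 13, against 16% of all), and TGTGGT, letters bound by RUNX factors, in those of *Lat*, *Lck* and *Zap70* (3 of 13, against 16.8%). These matches are descriptions of letters in a window and name no site in use. The stretches upstream of *Cd3g*, *Cd3d* and *Lat* are shown because the first pair moved most closely together among all members and *Lat* changed most against sham. They hold only bases outside the RefSeq gene, run 5′ to 3′ on the gene's strand, and carry matches in capitals, which are the TCF and LEF letters on either strand in *Cd3d* and the E-box in *Lat*. *Cd3g* holds none.
Cd3g, chr9:44980432-44980681, minus strand: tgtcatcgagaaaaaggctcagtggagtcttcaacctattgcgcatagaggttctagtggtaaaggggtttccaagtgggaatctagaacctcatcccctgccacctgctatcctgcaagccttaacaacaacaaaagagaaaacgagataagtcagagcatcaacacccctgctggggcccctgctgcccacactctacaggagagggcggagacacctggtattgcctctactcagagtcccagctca
Cd3d, chr9:44981536-44981768, plus strand: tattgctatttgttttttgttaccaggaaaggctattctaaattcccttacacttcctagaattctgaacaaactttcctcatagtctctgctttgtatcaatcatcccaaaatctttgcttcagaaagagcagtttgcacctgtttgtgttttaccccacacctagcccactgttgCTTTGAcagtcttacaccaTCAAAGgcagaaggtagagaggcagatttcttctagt
Lat, chr7:126369706-126369818, minus strand: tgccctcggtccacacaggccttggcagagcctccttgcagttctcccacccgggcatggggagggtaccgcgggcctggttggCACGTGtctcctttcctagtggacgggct

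Per kilobase of exon, the mean level over the 44 libraries ran from 52.8 CPM per kb for *Tcf7* and 35.5 for *Lck* through 29.8 for *Cd2*, 28.2 for *Cd3d*, 25.9 for *Cd3g*, 19.2 for *Cd3e* and 15.02 for *Lat* to 7.09 for *Zap70*, 4.93 for *Cd247* and 2.13 for *Rhoh*. Between 169 reads for *Zap70* in its lowest library and 12377 reads for *Cd3g* in its highest stood behind the values. The CPM was a whole number of reads in 41 of 44 libraries for *Zap70* and in 44 of 44 for the others except *Cd247*. For *Cd247* it was so in 7 of 44, and its exons share their locus with *Pou2f1* and other annotated genes. *Cd247* is therefore uncertain. A single sham library, ZT15 replicate 2, held the highest level of 7 members among all 44 libraries, and of 9 of 10 members among the sham libraries. Its summed level of 10 NK cell markers was 793 CPM. KO ZT21 replicate 3 was the highest KO library for 9 of 10 members, with summed NK markers of 251 CPM. KO ZT15 replicate 1 had a higher NK sum, 282 CPM, and was the highest KO library for 0 members. Control tumour ZT9 replicate 2 was the lowest control tumour library for 7 of 10 members. Its summed NK markers were 90.5 CPM, within the 73.1 to 93.7 CPM of its group.

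**Figure D1:**
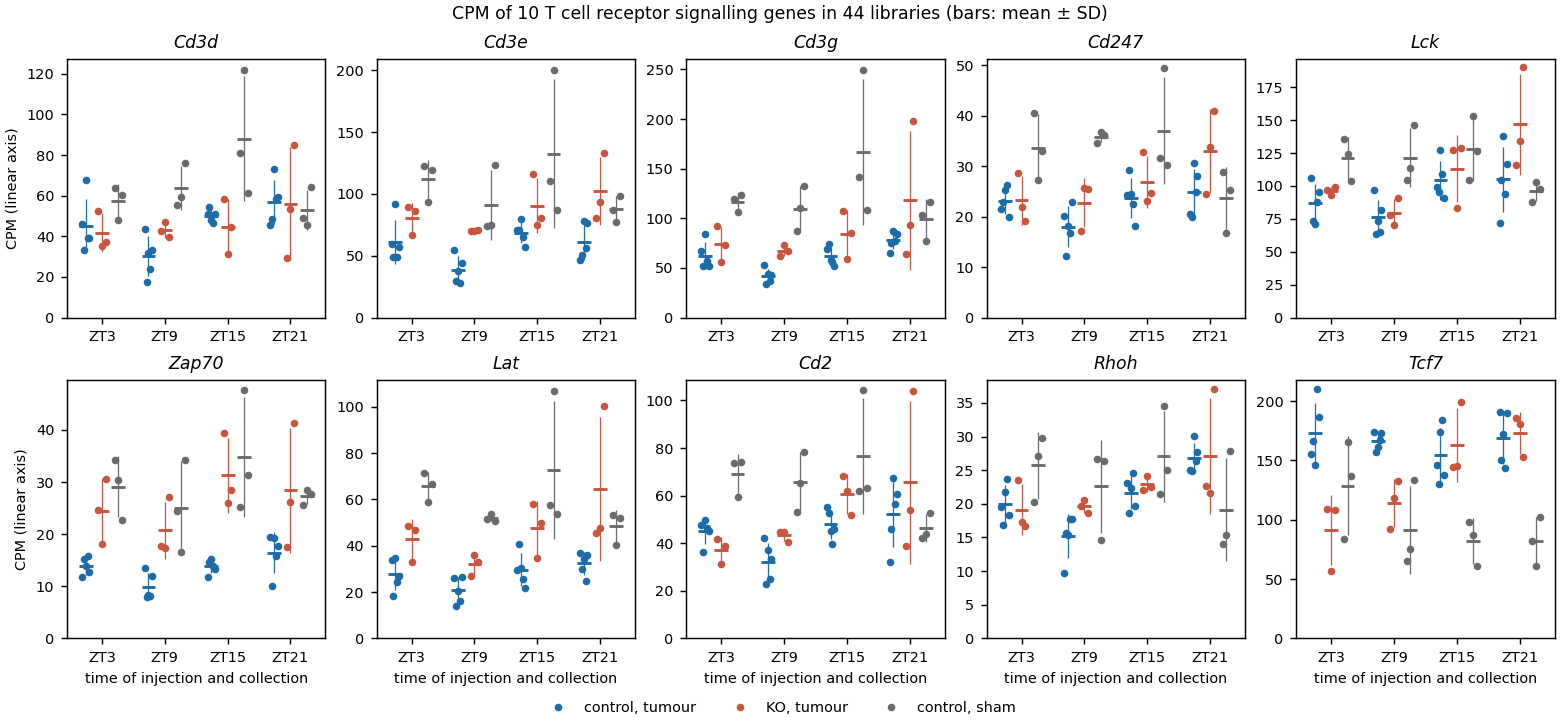
CPM on a linear axis of each member in each library against the time of injection and collection, with points for libraries, a bar for the mean and a line for the SD of the control tumour (n = 5), KO tumour (n = 3) and sham (n = 3) groups. For *Lat* the control tumour libraries at ZT9 lie between 14.2 and 26.6 CPM and the sham libraries between 50.9 and 53.5 CPM, whereas for *Tcf7* the sham libraries lie lower at ZT9.

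The first comparison asked how the members' mRNA differed between tumour-injected and sham-injected control mice. Averaged over the 4 timepoints, 9 of 10 members passed an adjusted p under 0.05, where 37.9% of all genes tested did. Of these, 8 were lower with tumour, against 24.6% of all genes, and *Tcf7* alone was higher, against 13.3%. The median difference of the members was -0.54 on the log2(CPM + 0.5) scale, and that of all genes -0.040. Of all genes called, 35.1% were higher with tumour, a share that became 46.1% with median-of-ratios scaling. The same 9 members were called under that scaling, where 37.7% of all genes were.

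Among the receptor chains, the CD3 gamma chain *Cd3g* differed most. At ZT9 its 5 control tumour libraries measured 52.6, 33.7, 44.1, 36.9 and 42.6 CPM, and the 3 sham libraries 86.8, 110.1 and 132 CPM. At ZT15 the tumour libraries measured 69.1, 74.3, 57.7, 56.1 and 51.9 CPM and the sham libraries 142, 249.6 and 108.5 CPM. The groups did not overlap at either time, with every sham library above every tumour library. Over time *Cd3g* was lower by a log2 difference of -0.99 ± 0.11 (SE, adjusted p = 2.26e-08), the epsilon chain *Cd3e* by -0.88 ± 0.13 (adjusted p = 3.53e-06), the delta chain *Cd3d* by -0.54 ± 0.12 (adjusted p = 0.00081) and the zeta chain *Cd247*, which carries most of the complex's phosphorylation sites, by -0.51 ± 0.10 (adjusted p = 0.00022).

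The proximal signalling genes *Zap70*, *Lat* and *Lck* fell as well, and differences between members were not tested. *Zap70*, the kinase recruited to the chains, measured 13.5, 7.85, 8.24, 8.12 and 11.9 CPM with tumour at ZT9 and 24.4, 16.6 and 34.3 CPM in sham. At ZT21 it measured 19.4, 10.1, 19.3, 15.8 and 17.8 CPM with tumour and 25.6, 28.5 and 27.6 CPM in sham, again without overlap. The log2 difference over time was -1.08 ± 0.11 (adjusted p = 2.14e-08). *Lat*, the scaffold, measured 26.3, 14.2, 20.2, 16.2 and 26.6 CPM with tumour at ZT9 against 51.5, 53.5 and 50.9 CPM in sham, and its difference over time was the largest of the 10 at -1.11 ± 0.12 (adjusted p = 2.2e-08). *Lck*, the kinase upstream of both, measured 63.9 to 138 CPM (median 94.5) over the 20 tumour libraries and 87.9 to 153 CPM (median 109) over the 12 sham libraries, with a difference of -0.34 ± 0.09 (adjusted p = 0.00459).

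Of the remaining members, *Cd2*, which encodes an adhesion receptor of T and NK cells, fell by 0.54 ± 0.11 (adjusted p = 0.000258). *Rhoh*, a haematopoietic GTPase without GTPase activity that helps to bring ZAP-70 and LCK to the receptor, did not pass (-0.16 ± 0.11, adjusted p = 0.275). *Tcf7*, which encodes TCF-1, a transcription factor of T cells and innate lymphoid cells, moved the other way. Its 5 tumour libraries at ZT9 measured 174, 157, 162, 168 and 173 CPM and its sham libraries 64.9, 75.7 and 133 CPM. Every tumour library was above every sham library at ZT9, ZT15 and ZT21, but not at ZT3, where the ranges were 146 to 210.1 CPM and 83.8 to 165 CPM. Over time it rose by 0.85 ± 0.11 (adjusted p = 5.3e-07).

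The difference from sham was also read at each timepoint, and no member passed the test of whether it differed between timepoints after adjustment. At ZT9, 9 of 10 members were called (16.3% of all genes), 8 of them lower (10.1%), and the same 9 had groups that did not overlap (24.2% of all genes). At ZT15 there were 8 calls (17.6%), at ZT3 4 calls (10.5%), which were *Lat*, *Zap70*, *Cd3g* and *Cd3e*, and at ZT21 2 calls (9.21%), *Zap70* lower and *Tcf7* higher. Groups did not overlap for 6 members at ZT3 (16.6% of all genes), 8 at ZT15 (19.4%) and 3 at ZT21 (17.8%), the last *Zap70*, *Lat* and *Tcf7*. Over all times at once the groups overlapped for every member (2.15% of all genes did not). The median difference of the members was -0.56 at ZT3, -1.08 at ZT9, -0.70 at ZT15 and 0.09 at ZT21, while that of all genes lay between -0.11 and 0.00409. The limma F test of the interaction of treatment and time gave 0 members and 0% of genes at an adjusted p under 0.05, and 6 members (*Cd3d*, *Cd3g*, *Cd247*, *Lck*, *Cd2* and *Rhoh*) against 11.9% of genes at an unadjusted p under 0.05. For *Cd3g* the unadjusted p was 0.00521 and the adjusted p 0.213, and for *Cd3d* 0.0089 and 0.242. Sham ZT15 replicate 2 weighed on the counts by timepoint: without it 19 of the 40 tests by member and timepoint passed, against 23 with it, and 9 members passed the averaged comparison either way.

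**Figure D2:**
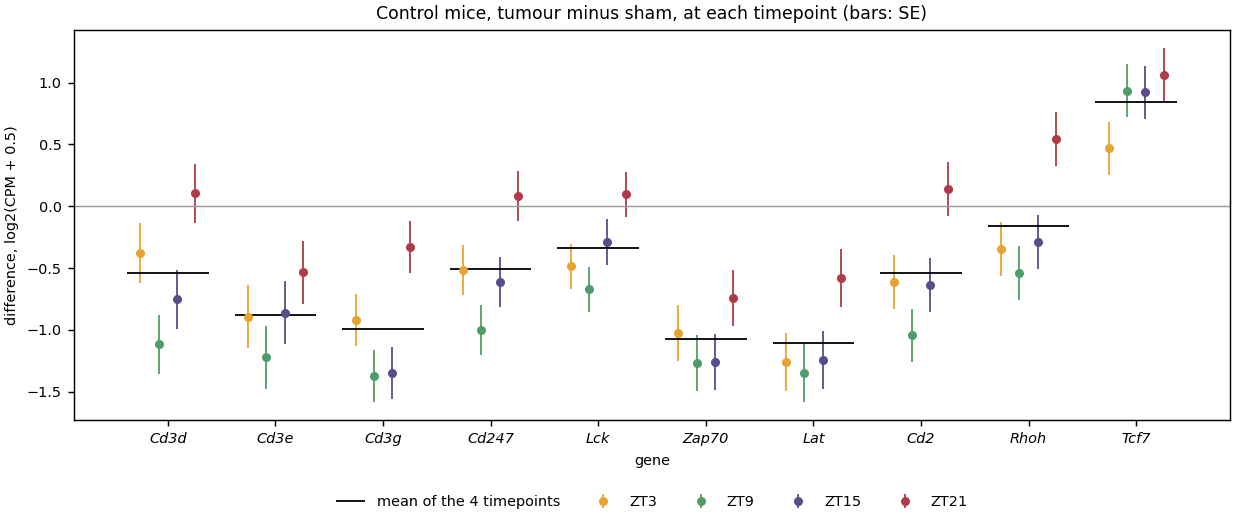
Difference between tumour-injected and sham-injected control mice on the log2(CPM + 0.5) scale for each member at ZT3, ZT9, ZT15 and ZT21, with its SE, and the mean over the timepoints as a black line. At ZT21 *Cd3d* (0.10), *Cd247* (0.09), *Lck* (0.09), *Cd2* (0.14) and *Rhoh* (0.54) lie above 0, and *Tcf7* lies above 0 at every time.

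Markers of other cell types were measured beside this comparison, and their counts are to be read against the 24.6% of all genes called lower and 13.3% called higher. The summed NK cell markers lay at 73.1 to 128 CPM in the control tumour libraries, 175 to 793 CPM in the sham libraries and 102 to 282 CPM in the KO libraries, so the control tumour and sham ranges did not overlap. With tumour, 9 of the 10 NK genes were lower than in sham, with a median difference of -1.82. Of its most abundant genes the cytotoxic granule genes *Gzma* (-3.78 ± 0.33) and *Nkg7* (-1.89 ± 0.17) and the receptor *Klrk1* (-0.57 ± 0.12) were lower, and *Klrd1* (-0.31 ± 0.13) did not pass. The defining NK genes *Ncr1* and *Klrb1c* were near 0 with tumour (0 to 3.68 CPM and 0 to 2.78 CPM) and at 7.78 to 39.5 CPM and 4.72 to 39.1 CPM in sham. The summed B cell markers were 44.04 to 77.7 CPM with tumour and 78.8 to 130.5 CPM in sham, with 5 of 9 genes lower, among them the kinase *Blk* (-3.25 ± 0.25), *Ms4a1* (-0.65 ± 0.16), *Cd79a* (-0.46 ± 0.12) and *Cd79b* (-0.34 ± 0.11). The defining B cell factor *Pax5* was at or near 0 throughout (at most 0.817 CPM). The summed granulocyte markers were 0.944 to 25.6 CPM and 7.35 to 31.5 CPM, with 2 of 6 genes lower, *Cxcr2* (-1.70 ± 0.17) and *Csf3r* (-1.66 ± 0.27). *S100a9* (-0.92 ± 0.43) and *Mmp9* (-0.32 ± 0.32) did not pass, and *Camp* was at most 1.27 CPM in any library. Of the DC markers 3 of 10 were lower and 1 higher, near the shares of all genes, with *Cd74* at -0.24 ± 0.08 and *Fscn1* at 0.44 ± 0.09, while *Ccl22* (0.06 ± 0.08) and *Ccr7* (0.01 ± 0.06) did not pass. The part of these cells in the members' differences was not tested.

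The second comparison followed the members over the day in the tumour-injected control mice. *Cd3d*, *Cd3g*, *Lck*, *Zap70*, *Lat*, *Cd2* and *Rhoh* are among the genes that the study itself listed for a late peak in these libraries, so their timing here is no independent evidence of it. A limma F test over the 4 timepoints called 3 members at an adjusted p under 0.05, *Cd3g* (0.0118), *Rhoh* (0.0137) and *Cd3d* (0.0358), where 5.28% of all genes passed, and 9 members at an unadjusted p under 0.05, where 23.1% did. In a 24 h cosinor fit, which describes a gene by the amplitude and the time of peak (acrophase) of a cosine, no member passed after adjustment, with 0.0251% of all genes passing, and 9 of 10 members, all but *Tcf7*, passed at an unadjusted p under 0.05, with 9.20% of all genes. The acrophases of those 9 lay between 18.9 h (*Lck*) and 21.04 h (*Zap70*), in the later part of the dark phase, where 4.07% of all genes passed unadjusted with an acrophase after 12 h, and the amplitudes between 0.23 (*Cd247*) and 0.49 (*Cd3d*) on the log2 scale.

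Levels were lowest at ZT9 for the 9 members other than *Tcf7*. From lowest to highest, *Cd3g* averaged 41.97 ± 7.28 CPM (SD, n = 5) at ZT9, 61.8 ± 9.42 at ZT15, 62.3 ± 13.7 at ZT3 and 77.8 ± 8.52 at ZT21. ZT15 and ZT3 were within their spread of each other, while the 5 libraries at ZT9 (at most 52.6 CPM) lay below the 5 at ZT21 (at least 65.4 CPM). *Rhoh* measured 9.66, 15.6, 15.4, 17.7 and 17.7 CPM at ZT9 and 25.1, 24.9, 30.1, 26.4 and 27.7 CPM at ZT21, also without overlap. *Cd3d* measured 43.6, 17.6, 31.98, 24.1 and 33.1 CPM at ZT9 and 45.6, 48.7, 72.9, 58.4 and 59.1 CPM at ZT21. These 3 were the members whose groups did not overlap at the pair of times (4.09% of all genes).

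Between ZT9 and ZT21 limma called 2 members, where 0.226% of all genes were called, both lower at ZT9 (0.134%), *Cd3g* (log2 difference -0.89 ± 0.15, adjusted p = 0.0184) and *Rhoh* (-0.83 ± 0.14, adjusted p = 0.0184). *Cd3d* gave -0.95 ± 0.21 (adjusted p = 0.061), *Zap70* -0.70 ± 0.17 (adjusted p = 0.108), *Cd2* -0.70 ± 0.19 (adjusted p = 0.166), *Cd3e* -0.67 ± 0.20 (adjusted p = 0.202) and *Lat* -0.66 ± 0.21 (adjusted p = 0.227). At an unadjusted p under 0.05 were 9 members, against 11.5% of all genes, all lower at ZT9, against 5.02%. *Tcf7* did not pass, with means of 173, 167, 154 and 169 CPM at ZT3, ZT9, ZT15 and ZT21 and a difference of -0.01 ± 0.12. With 1 library left out, *Cd3g* was called between ZT9 and ZT21 in 17 of 20 fits and *Rhoh* in 16 of 20, with adjusted p of at most 0.069 and 0.0736. Without control tumour ZT9 replicate 2 or ZT21 replicate 3 none was left, and without ZT9 replicate 3, ZT9 replicate 4 or ZT21 replicate 4 there was 1. Over the 20 fits, 0.0251% to 0.560% of all genes were called. By the F test *Cd3g* and *Rhoh* were called in 20 of 20 fits that left out 1 library, and *Cd3d* in 9 of 20 (adjusted p 0.0119 to 0.0929). The summed NK markers averaged 83.8 CPM at ZT9 and 94.6 CPM at ZT21, with ranges that overlapped (73.1 to 93.7 and 90.1 to 99.96 CPM). At ZT3 and ZT15 they averaged 93.2 and 107 CPM. The median difference between ZT9 and ZT21 was -0.08 for the 10 NK genes, -0.68 for the members and 0.04 for all genes. By the same adjusted test 1 of the 10 NK genes was lower at ZT9, against 0.134% of all genes. The part of other cells in the timing was not tested.

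In the KO libraries no member was called over time by the F test (0% of genes), by the cosinor fit (0%) or between ZT9 and ZT21 (0.00836%). The fitted difference between ZT9 and ZT21 was below 0 for all 10 members, with a median of -0.51, and the median of all genes was -0.12, which median-of-ratios scaling moved to -0.001. These values rested in part on KO ZT21 replicate 3. Without it the median was -0.25, with *Lat* at -0.54, *Cd3g* at -0.20, *Cd2* and *Zap70* each at -0.08 and *Cd3d* at 0.11, while *Lck* stood at -0.65 and *Tcf7* at -0.69. *Lck* measured 70.7 to 90.5 CPM at ZT9 and 116 to 190.1 CPM at ZT21 (log2 difference -0.85 ± 0.23, adjusted p = 0.272). *Lat* measured 26.9, 35.9 and 33.1 CPM and then 45.3, 47.5 and 101 CPM (-0.91 ± 0.32, adjusted p = 0.387). *Tcf7* measured 92.3, 119 and 132 CPM at ZT9 and 186, 181 and 153 CPM at ZT21 (-0.61 ± 0.27, adjusted p = 0.450). Unadjusted, limma gave 3 members under 0.05 here (*Lck*, *Lat* and *Tcf7*, 10.9% of all genes), 2 by the F test (*Lck* and *Tcf7*, 10.3%) and 4 by the cosinor fit (*Lck*, *Lat*, *Cd2* and *Tcf7*, 10.5%). The groups of *Cd3e*, *Lck*, *Lat*, *Rhoh* and *Tcf7* did not overlap between the times, as for 15.5% of all genes.

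In the sham libraries no member was called by any of the tests over time (0% of genes in each), and at an unadjusted p under 0.05 limma gave 0 members by the cosinor fit (7.38% of genes), 0 by the F test (7.44%) and 1 between ZT9 and ZT21 (5.32%), *Cd247*, which was higher at ZT9 (0.63 ± 0.25). The fitted difference between ZT9 and ZT21 was above 0 for 9 of 10 members, with a median of 0.20, and the groups of *Cd247*, *Lck* and *Cd2* did not overlap (10.4% of all genes). The SE of a member's difference was 0.19 to 0.34 in sham and 0.22 to 0.38 in KO mice, with 3 libraries a timepoint, against 0.12 to 0.21 in control tumour mice, with 5. Whether timing differed between tumour-injected and sham-injected mice is given by the interaction test above, which called no member.

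**Figure D3:**
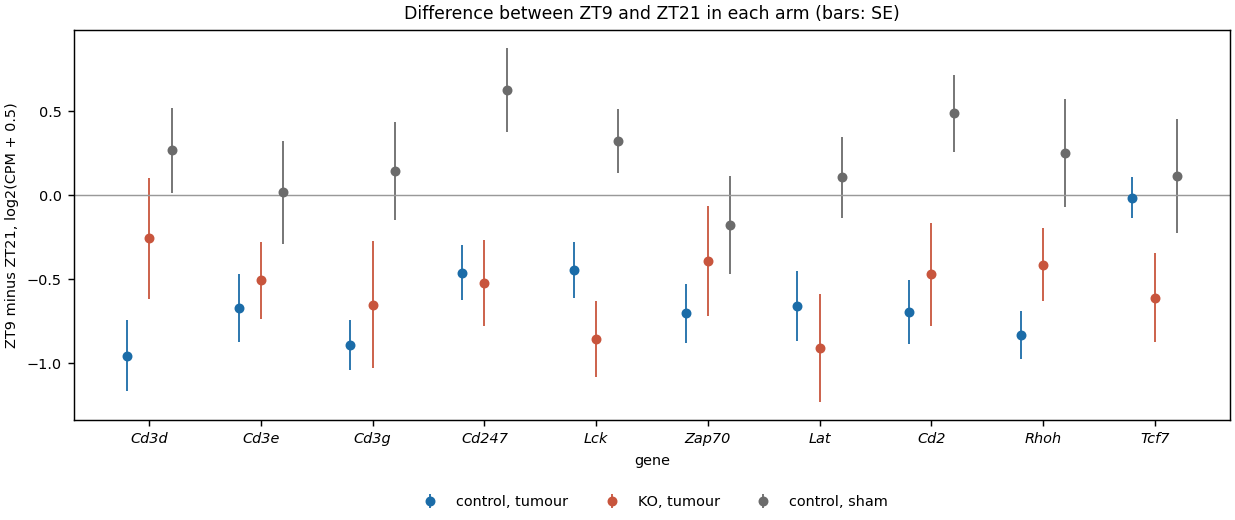
Difference between ZT9 and ZT21 on the log2(CPM + 0.5) scale for each member in the control tumour, KO tumour and sham groups, with its SE. In both tumour-injected groups the 10 fitted differences lie below 0, down to -0.95 for *Cd3d* and up to -0.01 for *Tcf7* in control mice, and in sham mice 9 lie above 0, up to 0.63 for *Cd247*.

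The third comparison set tumour-injected KO mice against tumour-injected control mice. It uses the same control tumour libraries as the comparison with sham, so its values are given beside those above and are no second measurement of those libraries. Averaged over time 5 of 10 members passed, where 33.7% of all genes did, with 4 higher in KO (23.5% of all genes) and 1 lower (10.2%). The median difference of the members was 0.22, and that of all genes 0.098. Of all genes called, 69.8% were higher in KO, a share that became 49.9% with median-of-ratios scaling, which moved the median of all genes to 0.011. That scaling called the same 5 members, where 29.3% of all genes were called. It also lowered the members' differences. *Cd247* and *Lck*, whose values set the members' median, went from 0.22 to 0.13 and from 0.21 to 0.11.

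*Zap70* differed most. Over all times it measured 7.85 to 19.4 CPM (median 13.7) in the 20 control libraries and 17.4 to 41.4 CPM (median 26.1) in the 12 KO libraries. At ZT15 the control libraries measured 11.8, 14.7, 15.3, 13.8 and 13.3 CPM and the KO libraries 39.4, 25.97 and 28.4 CPM. Every KO library was above every control library at ZT3, ZT9 and ZT15, and the groups overlapped at ZT21. The log2 difference over time was 0.91 ± 0.12 (adjusted p = 1.74e-06). *Lat* was higher by 0.71 ± 0.13 (adjusted p = 0.000132), *Cd3e* by 0.61 ± 0.11 (adjusted p = 0.000159) and *Cd3g* by 0.45 ± 0.12 (adjusted p = 0.00672).

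The test called *Cd3e* and *Cd3g* but not *Cd3d* and *Cd247*, and the difference between chains was not tested. While *Cd3e* measured 70.3, 70.2 and 70.9 CPM in the KO libraries at ZT9 against 54.3, 29.8, 37.4, 27.97 and 43.9 CPM in control, *Cd3d*, which forms a pair with the same epsilon chain in the receptor, differed by 0.04 ± 0.14 (adjusted p = 0.869). *Cd247* (0.22 ± 0.10, adjusted p = 0.0940), *Lck* (0.21 ± 0.10, adjusted p = 0.103), *Cd2* (0.19 ± 0.12, adjusted p = 0.227) and *Rhoh* (0.09 ± 0.09, adjusted p = 0.431) did not pass either. Without KO ZT21 replicate 3, the highest KO library for 9 members, 5 members were again called, and *Zap70* stood at 0.84 and *Lat* at 0.62. Of the members not called, *Cd247* stood at 0.18, *Lck* at 0.16, *Cd2* at 0.10, *Rhoh* at 0.03 and *Cd3d* at -0.06. Over the fits that left out 1 library, 30.9% to 34.1% of all genes were called.

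*Tcf7* was lower in KO by a log2 difference of -0.35 ± 0.09 over time (adjusted p = 0.00347). At ZT3 the control libraries measured 156, 166, 146, 210.1 and 186 CPM and the KO libraries 109, 57.1 and 108 CPM, a difference of -0.97 ± 0.18 (adjusted p = 0.00135). At ZT9 the difference was -0.56 ± 0.18 (adjusted p = 0.0505), and at ZT15 and ZT21 it was 0.08 and 0.04, each ± 0.18. The groups did not overlap at ZT3 and ZT9 and overlapped later in the day. In the test of KO against control over time *Tcf7* had an unadjusted p of 0.000682 and an adjusted p of 0.0784, so it did not pass. No member passed that test (0.0502% of genes), and *Tcf7* alone was under 0.05 unadjusted, against 18.3% of genes. Without KO ZT3 replicate 2, its lowest library, the difference over time was -0.28 (adjusted p = 0.00757).

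By timepoint, KO against control gave 7 calls among 40 tests. These were *Tcf7* at ZT3 (5.20% of all genes called), *Cd3e* and *Zap70* at ZT9 (8.94%), *Zap70* at ZT15 (14.8%) and *Cd3e*, *Zap70* and *Lat* at ZT21 (14.2%). Groups did not overlap for 2 members at ZT3 (13.0% of all genes), 6 at ZT9 (20.5%), 1 at ZT15 (23.5%) and 2 at ZT21 (19.5%), and over all times at once they overlapped for every member (0.903% of all genes did not). At ZT15 the members' median difference of 0.26 was close to that of all genes, 0.25. The summed NK markers were 73.1 to 128 CPM in control and 102 to 282 CPM in KO, with 6 of 10 genes higher, against 23.5% of all genes, and *Ncr1* at 2.68 to 11.3 CPM in KO. The summed B cell markers were 44.04 to 77.7 CPM (median 61.2) and 58.7 to 176 CPM (median 78.8), with 2 of 9 genes higher, *Blk* (2.66 ± 0.24) and *Ms4a1* (0.68 ± 0.16), a share near that of all genes. The summed granulocyte markers were 0.944 to 25.6 CPM (median 3.67) and 3.33 to 24.2 CPM (median 10.3), with 2 of 6 genes higher, while 0 of 10 DC markers were called. The part of these cells in the members' differences was not tested.

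**Figure D4:**
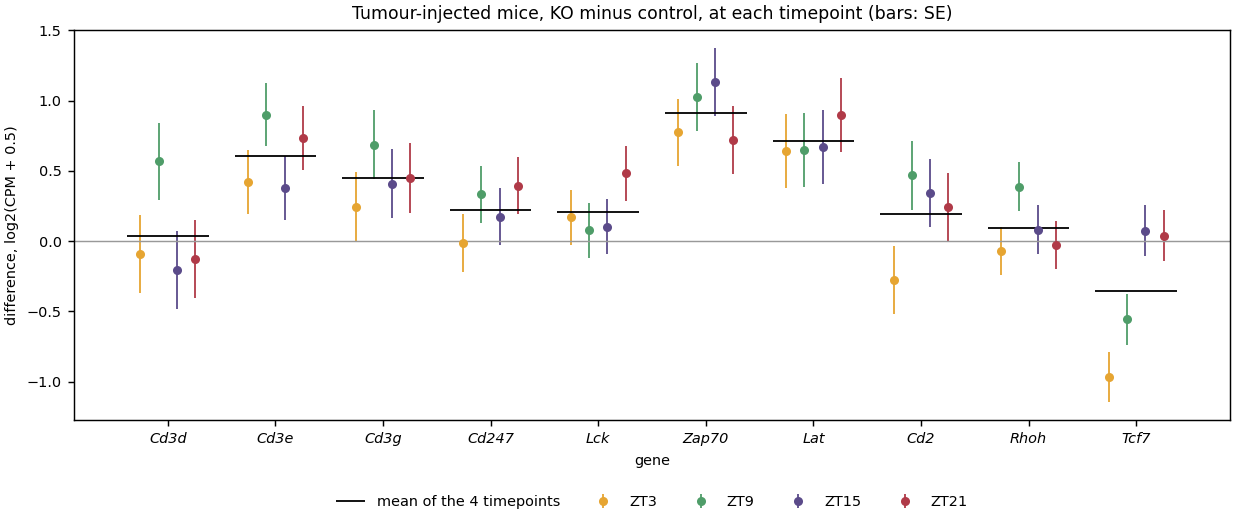
Difference between KO and control mice, both tumour-injected, on the log2(CPM + 0.5) scale for each member at ZT3, ZT9, ZT15 and ZT21, with its SE, and the mean over the timepoints as a black line. *Zap70* (0.72 to 1.13) and *Lat* (0.64 to 0.90) lie above 0 at every time, and *Tcf7* runs from -0.97 at ZT3 to 0.08 at ZT15.

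Beside the members, the other genes of the pathway and of T cells were counted in lists, to be read against the 24.6% of all genes called lower and 13.3% called higher with tumour than in sham. Of 6 T cell co-receptors and co-stimulatory receptors tested, 4 were lower with tumour than in sham, among them *Cd4*, the co-receptor for MHC class II (-0.99 ± 0.10), *Cd8b1* (-0.58 ± 0.11) and *Cd8a* (-0.29 ± 0.11), while *Cd6* gave -0.07 ± 0.13. The study also counted CD8+ cells among the CD11c+ cells of these nodes, so *Cd8a* is not a marker of T cells alone. Which cells carried the genes of these lists was not tested. Of 12 further proximal kinases and adaptors, 9 were lower and 1 higher. The scaffold partner of LAT, *Lcp2*, gave -1.15 ± 0.08, the adaptor *Skap1* -0.92 ± 0.12, the exchange factor *Vav1* -0.33 ± 0.11 and the kinase *Fyn* -0.29 ± 0.09. Of 10 genes further down the pathway, 4 were lower and 1 higher, with *Nfatc1* at -0.60 ± 0.10, *Bcl10* at -0.23 ± 0.05, *Malt1* at 0.34 ± 0.12 and *Nck1* at 0.09 ± 0.06, the last not called. Among 10 inhibitors of the pathway 4 were lower and 2 higher, with *Csk*, the kinase that restrains LCK, at -0.36 ± 0.08, *Dgka* at 0.41 ± 0.10, *Cblb* at 0.25 ± 0.10 and *Ptpn6* at -0.13 ± 0.07, which was not called.

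Of 8 T cell transcription factors 4 were lower and 3 higher with tumour. *Satb1* rose by 0.53 ± 0.12, while *Runx3* (-0.51 ± 0.09) and *Bcl11b* (-0.38 ± 0.12) fell and *Ets1* (-0.23 ± 0.10) did not pass. *Lef1*, the factor most like TCF-1 and named here after its values were seen, rose by 0.67 ± 0.09, as *Tcf7* did. Of 10 surface and effector genes 5 were lower and 0 higher, with *Icos* at -1.65 ± 0.11, *Ms4a4b* at -0.52 ± 0.12, *Il7r* at -0.45 ± 0.07 and *Il2ra* at 0.26 ± 0.11, the last not called. In KO against control, where 23.5% of all genes were called higher and 10.2% lower, the same lists gave 1 higher and 0 lower of 6 (receptors), 4 and 0 of 12 (proximal), 3 and 0 of 10 (distal), 2 and 0 of 10 (inhibitors), 1 and 3 of 8 (transcription factors) and 4 and 1 of 10 (surface). The shares of 1 in 6, 3 in 10 and 2 in 10 are near that of all genes. *Lcp2* was higher in KO (0.84 ± 0.09), and *Lef1* (-0.45 ± 0.10) and *Satb1* (-0.29 ± 0.11) were lower, in the directions of *Zap70* and *Tcf7*.

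In the timing of the control tumour libraries the lists held 3 of 6, 5 of 12, 1 of 10, 3 of 10, 2 of 8 and 7 of 10 genes lower at ZT9 than at ZT21 at an unadjusted p under 0.05 in the same order, against 5.02% of all genes, and none higher. The NK list held 1 of 10 and the B cell, granulocyte and DC lists 0 of 9, 0 of 6 and 0 of 10. At an adjusted p under 0.05, limma called 1 of 12 proximal, 1 of 10 surface and 1 of 10 NK genes lower at ZT9. The share of all genes was 0.134%, and the other lists held none.

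Within a condition, the members varied together among libraries, *Tcf7* least. After the mean of each of the 12 conditions was taken out, the Pearson correlation over the 44 libraries was 0.15 to 0.90 for the 36 pairs without *Tcf7* (median 0.57) and 0.01 to 0.28 for the 9 pairs with it (median 0.15). The neighbours *Cd3d* and *Cd3g* gave the highest value, 0.90, followed by *Cd3d* and *Cd3e* at 0.86. *Rhoh* was the loosest of the rest, with 0.15 (*Lck*) to 0.34 (*Cd3g*). These values share libraries, depth and the total to which each library is scaled, and they are given as a description.

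**Figure D5:**
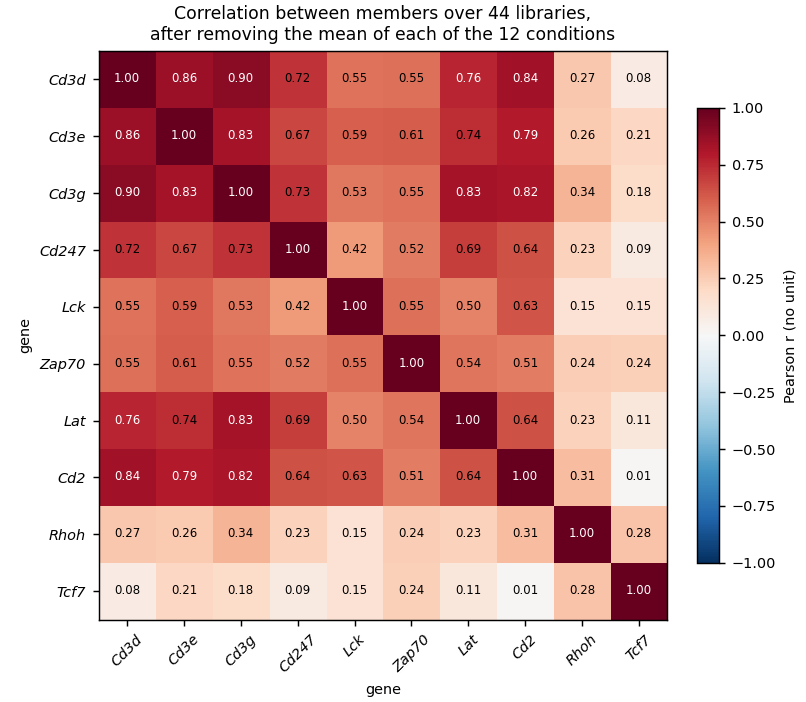
Pearson correlation between members over 44 libraries after the mean of each of the 12 conditions was removed, on a scale from -1 to 1. The chains, *Lat* and *Cd2* form the block of highest values, up to 0.90 for *Cd3d* and *Cd3g*, and *Tcf7* stays at or below 0.28.

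The genes whose deviations were most like the members' mean, over the same 44 libraries, were *Shisa5* (Pearson r = 0.86), *Ptprcap* (0.86), *Ltb* (0.85), *Hsd11b1* (0.82), *Hcst* (0.81), *Ms4a4b* (0.81), *Skap1* (0.80), *Gimap6* (0.79), *Thy1* (0.77) and *Cd28* (0.77). *Ptprcap* encodes the protein associated with CD45, *Thy1* the T cell surface protein Thy-1 and *Ltb* lymphotoxin beta. With tumour against sham *Ptprcap* gave -1.08 ± 0.12, *Thy1* -1.27 ± 0.18 and *Ltb* -0.94 ± 0.10, all called, whereas *Gimap6* gave 0.13 ± 0.10 and was not.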

How the data were processed

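The authors sequenced SMART-Seq v4 libraries made with Nextera XT (single reads of 50 bases), aligned them with STAR to mm10, counted reads on genes with HTSeq 0.9.1, normalised for library size with edgeR and deposited values scaled to a common total, CPM, for 14699 genes in 44 libraries. A library's scale was read from its most frequent value above 0, taken as 1 read. The read numbers given here are therefore estimates. Only 86.0 to 87.8% of the values above 0 were whole reads (tolerance 0.001), so no count test was run. Those reaching 1 CPM in 5 or more libraries, 11963 genes, were tested with limma 3.58.1 in R 4.3.3 on log2(CPM + 0.5). Contrasts, F tests over the 4 timepoints, a 24 h cosinor and interactions were fitted within the 2 groups compared or 1 group over time, with timepoint as the only covariate, and p-values were adjusted by Benjamini-Hochberg over all genes tested. A gene was called at an adjusted p under 0.05. The code was tested on simulated data. By the study's methods 5 control, 3 KO and 3 sham mice were used at each timepoint, so the spread within a group is that between mice. Alternatives were pseudocounts of 1 and 0.1, no filter on low values, a mean of at least 10 CPM, scaling by the median of ratios, a block on replicate number, array weights, an intensity trend, a cosinor interaction and leaving out each library. Named were all members, the 10 genes most like them and the 4 most abundant genes of each list. *Ncr1*, *Klrb1c*, *Pax5* and *Camp*, as defining markers, and *Lef1* were named after their values were seen. Members and lists were chosen with earlier results of these data known. *Trac*, *Trbc1*, *Trbc2*, *Trdc* and *Ly6g* were not analysed here.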

Additional observations from a re-analysis of the deposited data

Results flagged for a closer look

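The level of *Rhoh* in control tumour ZT9 replicate 1 was 9.66 CPM, and it lay far below the other 4 libraries of its group, which ran from 15.4 to 17.7 CPM. On the log2(CPM + 0.5) scale the gap to the nearest library was 0.766 of the range, above Dixon's critical value of 0.71; on the CPM scale it was 0.712, close to that value. Of the 10 members in the 4 groups of 5 control tumour libraries, 40 groups in all, this was the 1 so picked out, and chance flags about 1 in 20 groups.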

How the results depend on the processing

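Tumour against sham averaged over time kept 9 calls, and KO against control 5, under all alternatives except that leaving out a library gave 5 to 6 for KO. The share of all genes called was 30.8% to 42.3% against sham and 27.4% to 41.4% for KO. With a library left out it was 34.4% to 40.5% and 30.9% to 34.1%. No alternative called a member over time in KO or sham mice, where at most 0.585% of all genes were called. The array weights for KO mice alone stopped before convergence. The share of all tests called in the same fit stands after each count as a percentage. The control cosinor count of 0 (0.0251%) became 2 with a mean of at least 10 CPM (0.227%), 1 with an intensity trend (0.0920%) and 5 with array weights (1.23%), and 0 to 3 with a library left out (0.00836% to 0.359%). The F test count of 3 (5.28%) became 6 (11.2%), 5 (7.82%) and 8 (20.6%) in the same order, and 2 to 5 (2.32% to 11%). It became 4 with a pseudocount of 1 (5.57%) and 4 with median-of-ratios scaling (5.51%). The count of 2 between ZT9 and ZT21 (0.226%) became 8 with array weights (3.95%), and 0 to 3 (0.0251% to 0.560%). It became 3 with a mean of at least 10 CPM (0.681%) and 3 with an intensity trend (0.410%). Array weights thus raised the calls over all genes as well as over the members. KO calls by timepoint, 7 of 40 (10.8%), became 4 with median-of-ratios scaling (9%) and 12 with array weights (18.1%), and 4 to 10 (8.74% to 12.8%). Those against sham, 23 of 40 (13.4%), became 18 with median-of-ratios scaling (12.7%), and 19 to 24 (11% to 14.8%). They became 24 with an intensity trend (13.9%) and 24 with array weights (15.7%). The KO interaction, 0 (0.0502%), became 1 with an intensity trend (0.652%) and 1 with array weights (8.95%), and 0 to 1 (0.0334% to 2.60%). The causes were not tested. With the replicate block 7 calls by timepoint in KO (8.36%) and 19 against sham (10.4%) were made. Other counts of members were as reported, while the shares of all genes behind them were the same or lower. They were 2.85% for the control F test, 27.4% for KO averaged over time and 30.8% for sham averaged over time. The numbers pair nothing by label, with a median correlation of deviations of -0.0106, 0.0113 and -0.0150 in control, KO and sham mice.

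Of 3660 values for single members, 20 reversed, 18 lost and 48 gained a call. Between ZT9 and ZT21 *Tcf7* reversed in control mice with array weights (0.0127; -0.0707 to 0.0331 with a library left out), and *Cd3d* in KO mice ranged from -0.650 to 0.107. In sham mice *Cd3e* gave -0.0148 with median-of-ratios scaling and -0.0059 with array weights (-0.226 to 0.146), *Cd3g* -0.0219 to 0.304, *Lat* -0.0167 to 0.180, *Tcf7* -0.192 to 0.325 and *Zap70* -0.428 to 0.0849. In KO against control *Cd3d* gave -0.0580 with median-of-ratios scaling (-0.0553 to 0.134) and *Rhoh* -0.0093 with array weights. None of these was called. Depth limits *Zap70* most, with 169 reads in its lowest library.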

Other observations

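The genes most like *Tcf7* over the 44 libraries, chosen after its values were seen, were *Csnk1g2* (Pearson r = 0.87), *Lemd2*, *Cmip*, *Agap3*, *Fbxo45*, *Axin1*, *Phc2*, *Cdk13*, *Ncoa1* and *Irs2*, and none of them is in a T cell list used here. Differences are given only for *Axin1* and *Cdk13*, at ranks 6 and 8 and picked by no rule set beforehand, so they do not stand for the whole list. With tumour against sham *Cdk13*, a transcription kinase, gave 1.33 ± 0.16 and *Axin1*, a scaffold of the beta-catenin destruction complex, 1.30 ± 0.17 on the log2 scale, in the direction of *Tcf7*. In KO against control they gave -0.85 ± 0.09 and -0.58 ± 0.19, all 4 called by limma.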
